A study of Mus musculus with 4 samples.

Results

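Effector and memory CD8 T cells of the adult mouse liver were picked out by their RNA from a 10x Genomics 5′ single-cell data set with 1 library per sort. Barcodes under 300 genes or over 10% of mitochondrial counts were dropped. A member then carried at least 1 UMI (a unique molecular identifier, standing for 1 captured RNA molecule) of the CD3 genes, 1 of *Cd8b1* and 1 of *Trac*, *Trbc1* or *Trbc2*, at most 1 of *Trdc*, and none of *Cd4*, *Lef1*, *Ccr7*, *Kdr* or *Clec4g*. The rule was met by 501 of 35682 kept barcodes, 176 of 17509 in the tdTomato+ library and 325 of 18173 in the tdTomato- library. The comparison cells met the same limits but held 2 or more UMIs of *Lef1* and *Ccr7* together, and there were 548 and 1157 of them.

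Both sorts were made from livers of mice aged 2 months that carried *Stab2-CrexERT2* and *R26-LSL-tdT* (genotype S2 in the labels) and were labelled with tamoxifen at E9.5, while the treatment field of the labels reads "no". The Cre is driven by *Stab2*, a scavenger receptor gene of sinusoidal endothelium, so that tdTomato reports descent from cells that expressed *Stab2* when tamoxifen was given. The tdTomato+ library held sorted CD45+ tdTomato+ cells and is batch 1, and the tdTomato- library, called control in the labels, held CD45+ tdTomato- cells and is batch 2. The sort and the batch therefore cannot be told apart, the cells cannot be traced to single animals, and with 1 library per group no test was made. Intervals below are 95% exact Poisson intervals for levels, exact binomial intervals for shares and exact conditional binomial intervals for ratios, and all of them cover counting error only.

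CD8 T cells recognise peptides on class I molecules and leave the thymus in a naive state that recirculates through lymph nodes with the help of CCR7. After antigen they lose this programme, guided by LEF1 and TCF1, and gain chemokines, granzymes and interferon-γ. In the liver, memory CD8 T cells patrol the sinusoids and can stay there, and CXCR6, whose ligand CXCL16 is displayed on sinusoidal endothelium, is known for its part in that.

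The libraries held 203366009 and 156771260 UMIs on 17957 and 18444 barcodes (tdTomato+ and tdTomato-, the order kept throughout). The members held 1670375 and 2358234 UMIs, with a median of 7351 and 6377 UMIs per cell, below the 10213 and 9989 of the comparison cells. There were 3 and 55 members under 2000 UMIs. The libraries shared 84 barcode sequences, of which 0 and 4 fell on members. No doublet caller was run, and 25 and 41 members held a UMI of *Stab2*, *C1qa*, *Cd79a* or *S100a8*, genes of endothelium, macrophages, B cells and neutrophils.

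A group of 48 tdTomato- members (14.8%, 11.1 to 19.1%) stood apart, because each of them held UMIs of both *Igkv3-10* and *Ighv3-6*, a light and a heavy chain V segment. None of the 176 tdTomato+ members did. These 48 were shallow, with a median of 1577.5 UMIs against 6870 in the other tdTomato- members, and 43 of them rested on 1 *Cd8b1* UMI. They carried *Jchain*, a gene of antibody-secreting cells, at 1339 CPM (a gene's UMIs per 1000000 UMIs of the summed cells) against 0.438 CPM in the others, less *Ccl5* (4863 against 15699 CPM) and less *Gzmk* (91.0 against 448 CPM), but similar *Cxcr6* (390 against 357 CPM). In the whole tdTomato- library 1283 kept barcodes (7.06%) held both segments, among them 1205 T cells and 0 of 346 B cells, for which 3 counts of the total allow up to 0.867% and the exact 95% upper limit is 1.06%. Some results below are given with and without these barcodes, and where this is not said they are included.

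Levels did not change sharply at the line that the rule drew. The levels are sums over cells, so they cannot tell graded cells from a changing mixture. Just outside it were 85 and 142 CD8 T cells with 1 UMI of *Lef1* or *Ccr7*, and their *Ccl5* was 15807 and 13793 CPM, against 12590 and 15346 CPM in members. Cells with 2 such UMIs still held *Gzmk* at 336 and 478 CPM, whereas cells with 4 or more held 48.2 and 44.8 CPM. *Tcf7*, which encodes the naive and memory factor TCF1, ran the other way, from 102 and 139 CPM in members through 181 and 157 CPM at 1 UMI to 529 and 547 CPM at 4 or more. The comparison cells thus included 152 and 388 with 5 or more *Ccl5* UMIs, and the ratios below are set by where the line lies. At the *Cd8b1* limit, 27 and 89 members held a single *Cd8b1* UMI. At the *Trdc* limit 0 and 37 members held 1 UMI, and 0 and 19 cells with 2 *Trdc* UMIs lay just outside. Members with 2 or more *Cd8b1* UMIs and no *Trdc* UMI, called strict members here, numbered 149 and 216.

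Members made up 6.68% (5.76 to 7.70%) of the 2635 tdTomato+ T cells and 2.14% (1.92 to 2.38%) of the 15186 tdTomato- T cells, and these intervals did not overlap. As a share of all kept barcodes the order was the other way, 1.01% (0.863 to 1.16%) and 1.79% (1.60 to 1.99%), again without overlap. Of the CD8 T cells with any *Lef1* and *Ccr7* count they were 21.8% (19.0 to 24.8%) of 809 and 20.0% (18.1 to 22.0%) of 1624, and here the intervals did overlap. Without the barcodes that held *Igkv3-10* and *Ighv3-6*, the tdTomato- share of T cells was 1.98%. Only strict members gave 5.65% and 1.42%. The authors describe the sequenced population as containing every γδ T cell and a small part of other types. The shares of T cells and of barcodes are thus shares of what was sorted, not of the liver.

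The named markers were present in both libraries. *Ccl5*, a chemokine of effector and memory T cells, was found in 92.6% and 97.8% of members, *Gzmk*, a granzyme of memory CD8 T cells, in 71.0% and 60.9%, and *Cxcr6* in 68.8% and 72.6%. B cells, which should lack these genes, held a *Gzmk* UMI in 0.803% and 0.289% of cells and a *Cxcr6* UMI in 1.20% and 0.867%, at a median depth of 6362 and 5841 UMIs, while *Ccl5* UMIs reached 6.83% and 18.8% of them. With each cell thinned to 2000 UMIs, which leaves out 3 and 55 members, the shares of members became 44.5% and 46.3% for *Gzmk* and 38.2% and 47.8% for *Cxcr6*. These tdTomato- shares include the barcodes with *Igkv3-10* and *Ighv3-6*. Without them, unthinned, 56.7% of tdTomato- members held both genes, 12.6% *Gzmk* alone and 20.2% *Cxcr6* alone. With them these were 49.8%, 11.1% and 22.8%. The median member held 102 and 96 *Ccl5* UMIs but only 2 and 1 of *Gzmk*, so that the presence of a *Gzmk* UMI in a cell depends on its depth. *Cd8a*, the partner chain of *Cd8b1*, was missing in 15 and 75 members. *Cxcr6* and *Ccl5* were not particular to members. Without the *Igkv3-10* and *Ighv3-6* barcodes, *Cxcr6* was 311 and 357 CPM in members. It was 645 and 561 CPM in γδ T cells and 523 and 540 CPM in effector CD4 T cells. *Ccl5* was 12590 and 15699 CPM in members and 8553 and 10134 CPM in γδ T cells. *Gzmk* was 501 and 448 CPM in members and 52.6 and 68.9 CPM in γδ T cells. The γδ values are sums over all 42 and 1885 γδ T cells. The authors describe a γδ cluster with elevated *Gzmk*, which was not set apart here.

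Markers of other cells were low in most lists and carried by few cells in some. The macrophage list (8 genes) summed to 368 and 356 CPM, with 72.6% and 67.1% of its UMIs in 2 cells of each library. The NK and innate lymphoid list (3 genes) summed to 150 and 390 CPM and the γδ list (6 genes) to 301 and 453 CPM, with *Trdc* at 0 in the tdTomato+ members. The erythroid list was 16.2 and 5367 CPM, and 2 tdTomato- cells held 99.9% of the latter. The endothelial list reached 205 and 153 CPM, of which *Ehd3* was 83.8 and 77.6 CPM, the B cell list 53.9 and 153 CPM, the hepatocyte list 32.3 and 3.82 CPM and the neutrophil list 28.1 and 16.96 CPM. A UMI of the endothelial list was found in 75.6% and 42.5% of members and in 68.7% and 48.8% of B cells. In members it was spread widely, with 8.45% and 14.7% of its UMIs in 2 cells. *Trav11*, the α chain segment of invariant NKT cells, was at 0 in both, and the invariant NKT, MAIT and CD4 lists each stayed at or under 19.8 CPM.

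Against the comparison cells, 128 of 3434 genes were higher in the members of both libraries (3.73%) and 57 were lower (1.66%), where higher means a ratio of at least 2 and at least 50 CPM in 1 of the cell groups of each library. The rule chose the members on *Lef1* and *Ccr7*, which travel with the naive programme, so these counts and the values of this contrast describe the chosen cells and carry no test. The balance of the counts depended on the scale. Library totals gave 69.2% of the past-fold genes as higher, while median-of-ratios factors, which lowered the log2 ratios by 0.25 and 0.20, gave 76 higher and 101 lower genes (42.9% higher). Members stood highest over the comparison cells for *Klre1*, *Trgv2*, *Ccl4*, *Ccl3*, *Fgl2*, *Itga1*, *Cd244a*, *Gzmb*, *Ccl5* and *Atp8a2*, ranked by the smaller ratio of the 2 libraries.

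**Figure D1:**
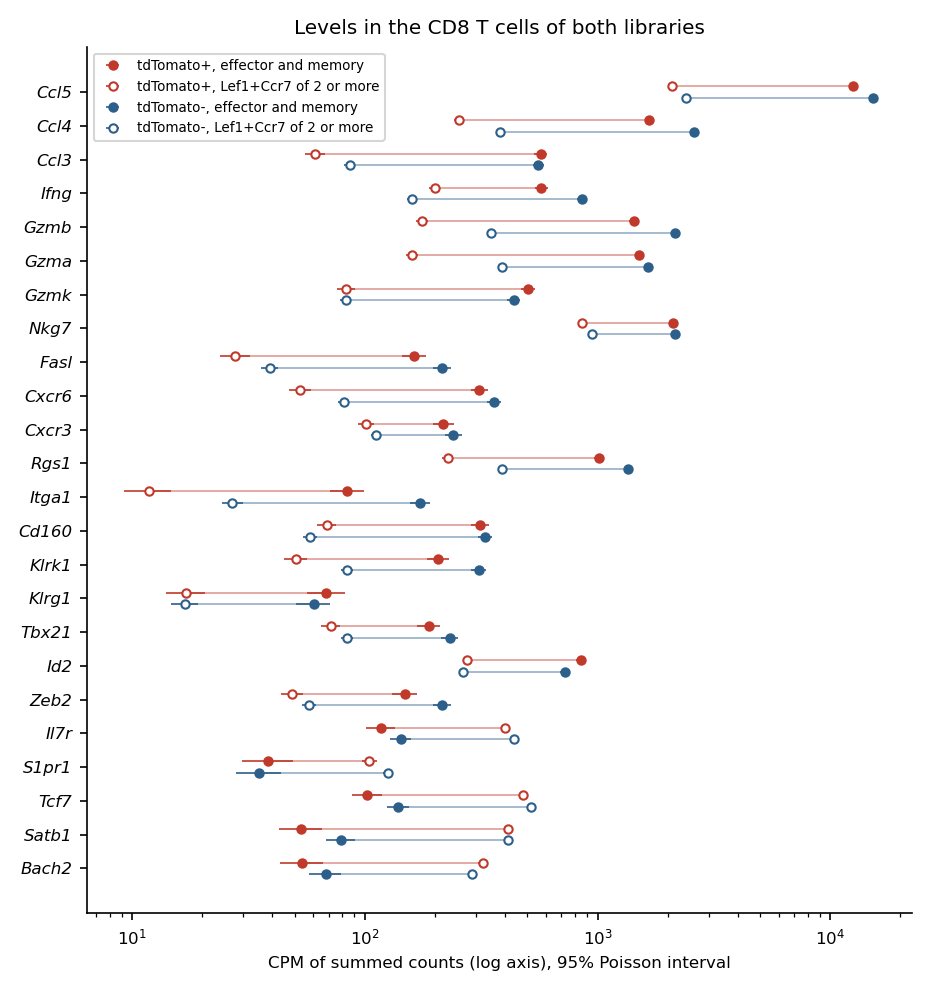
Levels of 24 list genes in effector and memory CD8 T cells (filled circles) and in CD8 T cells with 2 or more UMIs of *Lef1* and *Ccr7* together (open circles), in CPM of summed counts on a log axis, with 95% exact Poisson intervals. Red marks the tdTomato+ library and blue the tdTomato- library. *Ccl5* lay at 12590 and 15346 CPM in members against 2090 and 2400 CPM, and *Tcf7* at 102 and 139 CPM against 476 and 519 CPM.

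Granzymes and death ligands were the cytotoxic genes that set members apart. Of 14 measured cytotoxic genes, 6 were higher in both libraries (*Gzmk*, *Gzma*, *Gzmb*, *Nkg7*, *Fasl* and *Tnfsf10*) and none lower, and the median log2 ratio of the list was 1.00 and 1.04 beside 0.22 and 0.17 over all genes measured. *Nkg7*, a granule membrane gene, lost its call under median-of-ratios factors. *Gzmk* (chr13:113171608-113225908, minus strand) was 501 and 436 CPM in members and 83.1 and 82.6 CPM in comparison cells, a log2 ratio of 2.59 (2.43 to 2.75) and 2.40 (2.28 to 2.52). *Gzmb* (chr14:56258838-56262260, minus strand), the granzyme that activates caspases in targets, was 1428 and 2147 CPM against 176 and 349 CPM. *Gzma* was 1504 and 1650 CPM against 159 and 390 CPM, and *Fasl*, the ligand of the death receptor Fas, 163 and 215 CPM against 27.7 and 39.1 CPM. In all 4 genes the members of either library were above the comparison cells of both. *Prf1*, which encodes the pore protein perforin, differed less, at 102 and 163 CPM against 61.4 and 75.6 CPM, and was past the fold in the tdTomato- library alone.

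The promoters of *Gzmk*, *Gzmb* and *Cxcr6* are shown because *Gzmk* and *Cxcr6* define the subsets described further on, in which *Gzmb* is also reported. Each window holds 250 bases before and 50 after the RefSeq start site on GRCm38.p6, read 5′ to 3′ on the gene's strand, and no match of one motif overlaps a match of the other. Capitals mark matches, on either strand, to a T-box core (GGTGTGA, the family of T-bet and Eomes, 3.98% of all 32851 promoters) or a Runx core (TGTGGT, 16.8%). The *Gzmk* window (chr13:113180916-113181215, minus strand) held 1 T-box match that began 75 bases before the start site. The *Gzmb* window (chr14:56262285-56262584, minus strand) held 2 Runx matches, 93 and 34 bases before the start, and the *Cxcr6* window (chr9:123806227-123806526, plus strand) held 1 reverse Runx match 10 bases before it. A match describes these letters and does not show a site in use.
Gzmk: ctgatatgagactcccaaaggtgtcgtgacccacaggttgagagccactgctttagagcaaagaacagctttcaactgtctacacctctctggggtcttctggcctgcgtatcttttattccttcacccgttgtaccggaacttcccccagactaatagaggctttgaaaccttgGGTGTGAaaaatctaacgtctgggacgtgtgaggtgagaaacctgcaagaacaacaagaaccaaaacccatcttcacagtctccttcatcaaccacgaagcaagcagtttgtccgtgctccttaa
Gzmb: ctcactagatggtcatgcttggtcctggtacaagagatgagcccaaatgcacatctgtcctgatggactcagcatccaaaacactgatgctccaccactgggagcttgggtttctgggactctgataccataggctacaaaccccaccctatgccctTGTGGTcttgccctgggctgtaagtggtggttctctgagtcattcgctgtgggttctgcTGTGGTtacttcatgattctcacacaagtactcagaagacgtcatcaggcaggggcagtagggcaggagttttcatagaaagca
Cxcr6: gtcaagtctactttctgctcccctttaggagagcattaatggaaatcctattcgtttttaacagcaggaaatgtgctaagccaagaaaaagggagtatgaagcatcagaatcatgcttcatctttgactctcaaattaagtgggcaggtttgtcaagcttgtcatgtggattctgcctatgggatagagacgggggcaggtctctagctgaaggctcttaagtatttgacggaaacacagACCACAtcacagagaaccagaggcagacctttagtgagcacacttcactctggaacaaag

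Secreted signals followed the granzymes. Of 7 measured cytokines and chemokines, 4 were higher (*Ifng*, *Ccl3*, *Ccl4* and *Ccl5*) and none lower, with a list median of 1.52 and 2.42. *Ccl5* (chr11:83525778-83530518, minus strand) had a log2 ratio of 2.59 (2.56 to 2.62) and 2.68 (2.65 to 2.70). *Ccl4*, a related chemokine, was 1671 and 2591 CPM against 254 and 379 CPM, and *Ifng*, the macrophage-activating cytokine, 573 and 854 CPM against 199 and 159 CPM. *Xcl1*, which draws cross-presenting dendritic cells, did not keep a direction, with 174 CPM against 274 CPM in the tdTomato+ library and 282 against 183 CPM in the tdTomato- library. *Tnf* was past the fold in the tdTomato- library alone, with log2 ratios of 0.57 and 1.24.

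Receptors that guide cells to inflamed tissue were higher. Of 7 chemokine and sphingosine receptors, *Cxcr6*, *Cxcr3* and *Ccr2* were among the 4 that were higher and *S1pr1*, the receptor that leads T cells out of tissue into blood and lymph, was lower, although *Cxcr3* lost its call under median-of-ratios factors. *Cxcr6* (chr9:123806475-123811760, plus strand) was 311 and 358 CPM against 52.8 and 81.0 CPM, and *S1pr1* was 38.3 and 35.2 CPM against 105 and 126 CPM. Of the naive and recirculation list, 10 of 12 genes were lower and none higher, with a median of -2.50 and -2.18. *Tcf7*, which encodes TCF1, was 102 and 139 CPM against 476 and 519 CPM, and *Satb1*, a chromatin organiser of naive T cells, 53.3 and 78.9 CPM against 413 and 413 CPM. *Klf2* and *Foxo1* were the 2 list genes that were not past the fold. *Klf2*, which drives *S1pr1*, kept 1122 and 1873 CPM against 2139 and 2749 CPM.

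**Figure D2:**
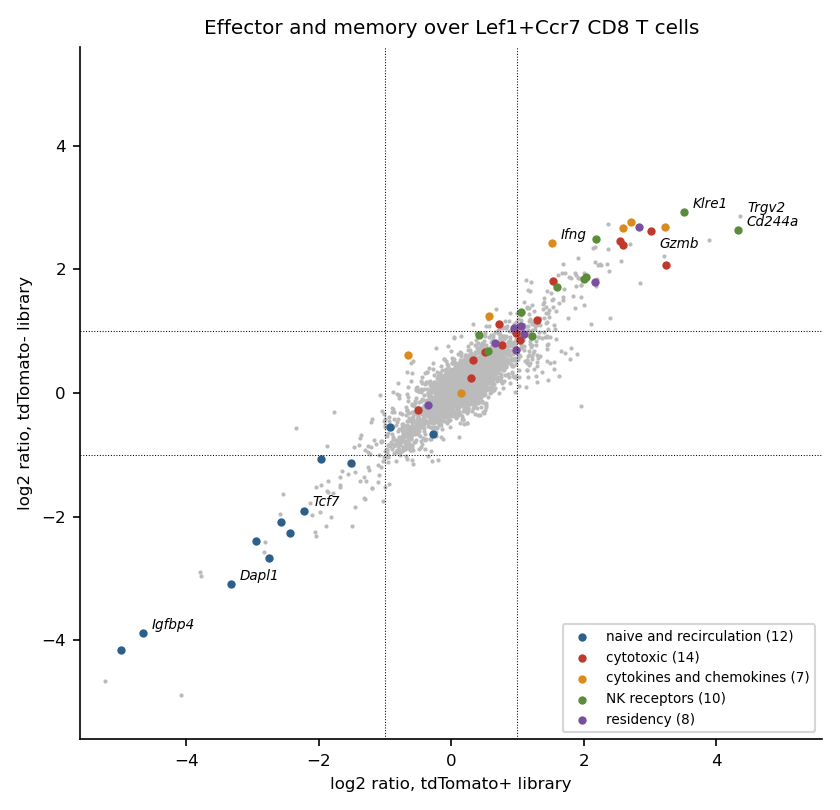
Log2 ratio of CPM in effector and memory over *Lef1*/*Ccr7*-positive CD8 T cells, in the tdTomato+ library (x axis) and the tdTomato- library (y axis), with a grey point for each gene measured and colours for 5 gene lists. Dotted lines mark a ratio of 2 either way, 10 of 12 naive genes lie past it at the lower left, and 7 of 10 NK receptors lie past it at the upper right.

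Residency genes were higher in part. Of 8 measured, *Itga1*, *Rgs1* and *Itgal* were higher and none lower, with *Itgal*, an integrin of sinusoidal patrolling, losing its call under median-of-ratios factors. *Itga1* (chr13:114953096-115101964, minus strand), the collagen-binding integrin CD49a, was 83.8 and 173 CPM against 11.8 and 26.9 CPM. *Cd69*, which holds back S1PR1, was not higher, at 540 and 695 CPM against 691 and 794 CPM. *Itgae*, the CD103 integrin of epithelial memory cells, stayed under 50 CPM in every group, and *Zfp683*, which encodes Hobit, was 33.5 and 52.6 CPM against 5.01 and 7.95 CPM.

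Among regulators 6 of 13 were higher, with a list median of 1.00 and 0.88. *Tbx21*, which encodes T-bet, was 188 and 231 CPM against 71.5 and 83.6 CPM, *Id2* 850 and 724 CPM against 276 and 263 CPM, and *Bhlhe40* 294 and 237 CPM against 64.1 and 65.9 CPM. *Zeb2*, a T-bet partner in terminal effectors, was also higher, while *Ikzf3* and *Nr4a2* were higher only on library totals. *Eomes*, the sister factor of T-bet, differed little, at 105 and 106 CPM against 76.0 and 83.3 CPM.

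Of 10 measured receptors and adaptors shared with NK cells, 7 were higher and none lower (*Klrg1*, *Klrc1*, *Klrk1*, *Klre1*, *Cd160*, *Cd244a* and *Cd226*), with a median of 1.80 and 1.78. *Cd226* lost its call under median-of-ratios factors. *Klre1* (chr6:129577905-129585827, plus strand) was 88.0 and 273 CPM against 7.68 and 35.9 CPM, and *Cd160* 313 and 329 CPM against 68.6 and 58.3 CPM. Of 9 checkpoint and costimulation genes, *Tigit*, *Slamf7* and *Entpd1* were higher. *Pdcd1*, which encodes PD-1, was 64.1 and 44.9 CPM in members against 14.3 and 9.75 CPM, and *Lag3* was 40.7 and 46.2 CPM against 7.52 and 11.8 CPM, both too low for a call in both libraries.

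Cytokine receptors split, with *Il12rb2* and *Il10ra* higher, both on library totals only, and *Il7r* and *Il4ra* lower among 10. *Il7r*, the survival receptor of naive and memory T cells, was 117 and 142 CPM against 402 and 438 CPM. None of 14 receptor signalling genes, 10 immediate-early and stress genes or 8 cell cycle genes was past the fold in both libraries. *Mki67*, a proliferation marker, was 343 CPM against 126 CPM and 239 CPM against 139 CPM, and 13.1% and 10.5% of members held 5 or more UMIs of the cell cycle list. Of 7 interferon response genes only *Isg15* was higher, at 238 and 200 CPM against 64.6 and 60.2 CPM. Under median-of-ratios factors *Slamf6* and *Ly6c2* joined the lower genes.

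Few genes were past the fold between the members of the 2 sorts. Of 3734 genes measured, 20 (0.536%) were higher in tdTomato+ members and 31 (0.83%) lower, at the same fold and level limits. The effector core lay within these limits. *Gzmk* had a log2 ratio of 0.20, *Gzmb* of -0.59, *Ccl4* of -0.63 and *Ifng* of -0.58 (tdTomato+ over tdTomato-). Of the 13 gene lists, only *Tpx2* was higher, and *Itga1*, *Il12rb2*, *Klre1*, *Klra5*, *Fcer1g* and *Tyrobp* were lower.

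Genes of dividing cells were 6 of the 10 with the largest ratios on the higher side. *H3c3*, *H2ac22*, *H2ac4* and *H2ac20*, replication-dependent histone genes, and *Tacc3* and *Aspm*, spindle genes, were these 6. *H3c3* was 212 CPM in tdTomato+ and 44.1 CPM in tdTomato- members, and *H2ac4* was 611 and 242 CPM. Histone genes are near-identical copies, so that the split of reads between them is uncertain. Without the 23 and 34 members with 5 or more cell cycle UMIs, 4 of the 20 higher genes kept their call, and *H3c3* was 3.48 and 2.78 CPM. *Gadd45g*, a stress gene, kept its call at 85.2 and 38.3 CPM. *Trav4-3*, *Trbv14* and *Trbv16* are receptor segments, and 2 cells each held at least 50% of the tdTomato+ UMIs of *Trbv14* and *Trav4-3*.

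Of the 31 lower genes 4 were in the NK list. *Klre1* was 88.0 CPM in tdTomato+ members and 273 CPM in tdTomato- members, a log2 ratio of -1.63 (-1.90 to -1.37), and cells with a *Klre1* UMI were 26.1% and 41.5%, or 17.3% and 30.4% after thinning. This difference was kept among strict members (85.9 and 202 CPM). *Klra5*, a Ly49 receptor gene, was 9.58 and 82.7 CPM, with all of its tdTomato+ UMIs in 1 cell, and 10.7 and 17.9 CPM in strict members. *Fcer1g* and *Tyrobp*, the signalling adaptors of such receptors, were 61.7 and 187 CPM and 85.0 and 185 CPM. In strict members they were 67.1 and 90.4 CPM and 95.3 and 85.5 CPM, so the *Tyrobp* difference turned its direction, and *Klra5*, *Fcer1g* and *Tyrobp* were not past the fold there. In the tdTomato+ library 2 cells held 67.0% of the *Fcer1g* UMIs and 68.3% of the *Tyrobp* UMIs. The NK and innate lymphoid marker list (150 and 390 CPM) consists of these 2 genes and *Ncr1*, so it is not a separate measure of such cells.

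*Itga1* was lower in tdTomato+ members, with a log2 ratio of -1.05 (-1.33 to -0.77). It was found in 30.1% and 44.0% of cells. Among strict members it was 81.9 and 140 CPM and among members outside the cell cycle 109 and 193 CPM, and in neither was it past the fold. *Il12rb2*, a chain of the interleukin-12 receptor, was 56.9 and 116 CPM in all members, and 60.4 and 84.4 CPM in strict members. *Fgl2*, a secreted fibrinogen-like protein gene, was 77.8 and 170 CPM, and 73.9 and 128 CPM in strict members. None of the 3 was past the fold in strict members.

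Several genes with large ratios were absent from tdTomato+ members or were held by few cells. *Igkv3-10*, *Ighv3-6*, *Trbv17*, *Il17a*, *Hba-a2* and *Trav7d-3* were at 0 in tdTomato+ members. Of these, *Trbv17* lay in 7 tdTomato- members and *Hba-a2* in 3, whereas *Il17a* lay in 38. *Igkv3-10* and *Ighv3-6* were 375 and 240 CPM in tdTomato- members and lay in the 48 barcodes described above. *Il17a*, the cytokine of type 17 cells, was 53.4 CPM in tdTomato- members, at least 29.7-fold above the floor of 3 counts in the tdTomato+ members, and 34.6 CPM without those barcodes, which is under the level limit. The haemoglobin genes that were detected in both libraries were 0.599 to 14.4 CPM against 180 to 4652 CPM, and 2 tdTomato- cells held 99.9% of the erythroid list. *Trav7d-3*, at 97.95 CPM and at least 54.5-fold above that floor, was the main α segment of 15 of 251 tdTomato- members (5.98%). Without the *Igkv3-10* and *Ighv3-6* barcodes, 19 of the 20 higher and 27 of the 31 lower genes kept their call.

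**Figure D3:**
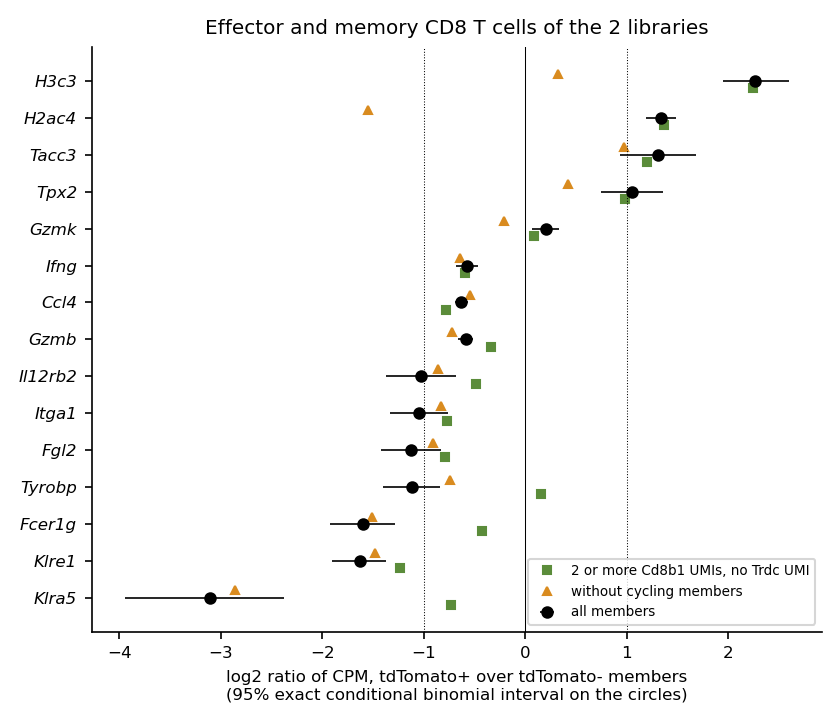
Log2 ratio of CPM in tdTomato+ over tdTomato- effector and memory CD8 T cells for 15 genes, with 95% exact conditional binomial intervals on the black circles (all members). Orange triangles leave out cells with 5 or more cell cycle UMIs, green squares keep cells with 2 or more *Cd8b1* UMIs and no *Trdc* UMI, and dotted lines mark a ratio of 2 either way. *H2ac4* moved from 1.34 to -1.55 without cycling cells, and *Tyrobp* from -1.12 to 0.16 in the strict members.

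*Gzmk* and *Cxcr6* divided the members into 4 subsets by the presence of a UMI. Cells with both were the most frequent, 92 (52.3%) and 162 (49.8%). *Gzmk*+ *Cxcr6*- cells were 33 (18.8%) and 36 (11.1%), *Gzmk*- *Cxcr6*+ cells 29 (16.5%) and 74 (22.8%), and 22 (12.5%) and 53 (16.3%) had neither. Thinned to 2000 UMIs the shares were 16.8% and 23.7% for both, 27.7% and 22.6% for *Gzmk* alone, 21.4% and 24.1% for *Cxcr6* alone and 34.1% and 29.6% for neither, so these shares are set by depth. The tdTomato- cells with neither UMI had a median of 1810.0 UMIs. Between subsets, the differences below were chosen by counts of *Gzmk* and *Cxcr6* in the same cells and are descriptions.

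*Gzmk*+ *Cxcr6*- cells held little CD49a RNA. Against cells with both, 24 of 3460 genes were higher in both libraries (0.694%) and 19 lower (0.549%). *Itga1* was 5.01 CPM against 118 CPM in the tdTomato+ library and 22.5 against 181 CPM in the tdTomato- library. The low values rest on 2 and 6 UMIs, with intervals of 0.607 to 18.1 CPM and 8.27 to 49.0 CPM. *Cd244a*, the 2B4 receptor gene, was 15.0 CPM (6 and 4 UMIs) against 86.2 CPM in both libraries. *Gzmb* was 852 against 1980 CPM and 957 against 2513 CPM. *Isg15* was 135 against 335 CPM and 97.6 against 217 CPM, and *Ifit3* was lower as well. These 5 list genes were lower in strict members and without the *Igkv3-10* and *Ighv3-6* barcodes too. On the higher side stood *Actn1*, a gene of the naive list, at 50.1 against 8.96 CPM and 52.6 against 18.1 CPM.

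Macrophage RNA moved with this comparison. Of the 24 higher genes, 6 were in the macrophage list (*C1qa*, *C1qb*, *C1qc*, *Clec4f*, *Vsig4* and *Cd5l*), which summed to 1073 and 1554 CPM in *Gzmk*+ *Cxcr6*- cells and 189 and 231 CPM in cells with both. It lay in few cells, 2 of which held 96.3% and 99.5% of the UMIs. Without members that held 5 or more UMIs of the list, 7 of the 24 higher and 15 of the 19 lower genes kept their call. The 7 higher genes that remained were *Dhx40* and 6 histone genes (*H2bc15*, *H1f5*, *H2ac22*, *H2ac23*, *H2bc8* and *H1f1*). Cells with 5 or more cell cycle UMIs were 21.2% and 11.1% of *Gzmk*+ *Cxcr6*- cells and 13.0% and 13.0% of cells with both, and their part in the histone values was not tested. *Itga1* was then 6.604 against 119 CPM and 24.0 against 182 CPM, *Cd244a* 13.2 against 87.3 CPM and 15.99 against 89.4 CPM, and *Isg15* 132 against 333 CPM and 95.9 against 226 CPM. *Gzmb* lost its call in the tdTomato+ library, at 1067 against 1998 CPM, as did *Actn1* in the tdTomato- library.

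*Zeb2*, *Cx3cr1*, *S1pr5* and *Klrg1* were looked at after their values were seen and belong to no common list. *Zeb2* was 303 CPM in *Gzmk*+ *Cxcr6*- cells and 95.2 CPM in cells with both in the tdTomato+ library, a log2 ratio of 1.67 (1.26 to 2.09), but 285 and 195 CPM in the tdTomato- library, 0.55 (0.17 to 0.92). *Cx3cr1* was 115 and 30.2 CPM, then 48.8 and 32.1 CPM. *S1pr5*, an exit receptor, was 87.7 and 20.2 CPM, then 37.5 and 22.1 CPM. *Klrg1* was 115 and 47.0 CPM, then 90.1 and 56.8 CPM. All 4 pointed the same way in both libraries and were past the fold in tdTomato+ cells alone. They were picked with these values known, so the shared direction is a description and no support for a pattern. The difference between the libraries was not tested.

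*Gzmk*- *Cxcr6*+ cells carried more receptor RNA for interleukins 7 and 18. Against cells with both, 30 of 3523 genes were higher in both libraries (0.852%) and 30 lower (0.852%). *Il7r* was 487 against 53.7 CPM and 237 against 93.6 CPM, log2 ratios of 3.18 (2.68 to 3.70) and 1.34 (0.96 to 1.72). *Il18r1* was 208 against 52.6 CPM and 142 against 61.5 CPM. *Csf2*, *Il2ra*, *Ikzf2*, *Dapl1* and *Nr4a1* were also higher, and *Eomes* was lower, at 29.1 against 107 CPM and 58.2 against 118 CPM, as were the cell cycle genes *Pclaf* and *Ccnb2* and the granzyme inhibitor *Serpinb6b*. This subset held a larger part of weakly supported members, 41.4% and 47.3% with 1 *Cd8b1* UMI. *Trgv4*, a γ chain segment, was among the 30 higher genes. The γδ list summed to 466 and 456 CPM in this subset, against 334 and 468 CPM in cells with both. The NK and innate lymphoid list summed to 16.6 and 628 CPM, against 88.5 and 375 CPM. Among strict members 9 of the 30 higher and 24 of the 30 lower genes kept their call. *Il7r*, *Il18r1*, *Csf2*, *Dapl1*, *Nr4a1*, *Eomes* and *Ccnb2* kept it, whereas *Il2ra*, *Ikzf2*, *Pclaf* and *Serpinb6b* lost it. Without the *Igkv3-10* and *Ighv3-6* barcodes 26 and 29 kept it, and *Eomes* lost it with a tdTomato- log2 ratio of -0.92. Without the macrophage-positive members 28 and 21 kept it, and *Nr4a1* and *Pclaf* lost it. *Gzma* was 62.4 against 1536 CPM in the tdTomato+ library and 1266 against 1927 CPM in the tdTomato- library.

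Between the single-positive subsets, 59 of 3511 genes were higher in *Gzmk*- *Cxcr6*+ cells (1.68%) and 48 lower (1.37%). *Trgv4*, *Trgv1* and *Trgc4*, genes of γ chains, were among the 59. The γδ list was 466 and 456 CPM against 120 and 379 CPM. *Itga1* was 99.8 against 5.01 CPM and 226 against 22.5 CPM, and *Cd244a* 66.6 against 15.0 CPM and 112 against 15.0 CPM. *Eomes* was 29.1 against 155 CPM and 58.2 against 161 CPM. Cells with neither UMI held *Itga1* at 65.3 and 204 CPM, so that *Gzmk*+ *Cxcr6*- cells were the lowest of the 4 subsets in both libraries. Among strict members 22 of the 59 and 41 of the 48 genes kept their call, with *Itga1* and *Eomes* among them. *Cd244a* lost it there because its tdTomato- level of 43.3 CPM was under the level limit. Of the 48 lower genes 6 were in the macrophage list, and without the macrophage-positive members 52 of the 59 and 32 of the 48 genes kept their call.

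**Figure D4:**
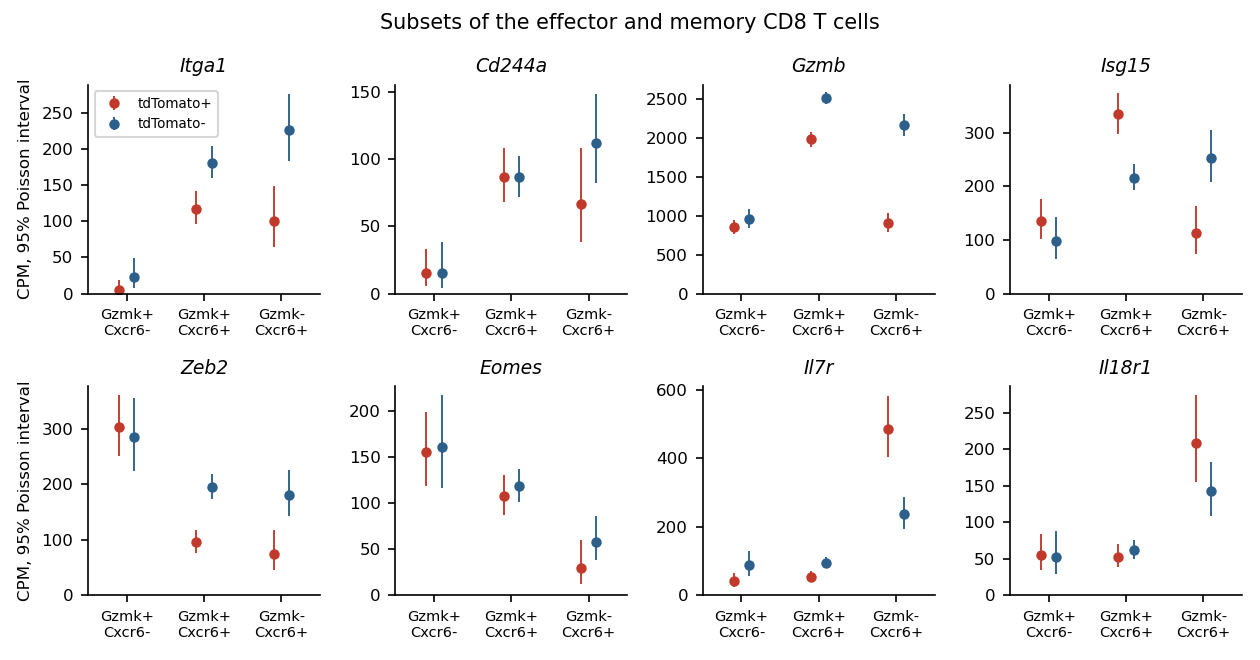
Levels of 8 genes in 3 subsets of the effector and memory CD8 T cells, in CPM of summed counts with 95% exact Poisson intervals, for the tdTomato+ (red) and tdTomato- (blue) libraries. *Itga1* was 5.01 and 22.5 CPM in *Gzmk*+ *Cxcr6*- cells and at least 99.8 CPM in both subsets with *Cxcr6*, and *Il7r* was 487 and 237 CPM in *Gzmk*- *Cxcr6*+ cells.

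A γ chain segment was among the genes that most set the members apart from the comparison cells, although the rule asked for αβ receptor RNA. *Trgv2* (chr13:19336573-19337167, minus strand) was 199 and 274 CPM in members and 9.72 and 37.5 CPM in comparison cells, log2 ratios of 4.35 (3.96 to 4.77) and 2.87 (2.70 to 3.04). A *Trgv2* UMI was found in 46.6% (39.1 to 54.2%) and 40.9% (35.5 to 46.5%) of members, in 3.83% and 11.8% of comparison cells and in 0 of 249 (3 counts of the total allow up to 1.20%, and the exact 95% upper limit is 1.47%) and 0.867% of B cells. The level was thus far above that of B cells in the same libraries, and it was not confined to CD8 T cells. *Trgv2* was also found in 39.0% and 43.0% of effector CD4 T cells and in 61.9% and 57.4% of γδ T cells. NK cells held a *Trgv2* UMI in 0.877% and 14.2% of cells, and a UMI of any *Trgv* segment in 36.3% and 30.1%. After thinning to 2000 UMIs the shares were 27.2% and 30.7% in members, 26.8% and 31.0% in effector CD4 T cells, 35.7% and 36.2% in γδ T cells and 1.65% and 6% in comparison cells.

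**Figure D5:**
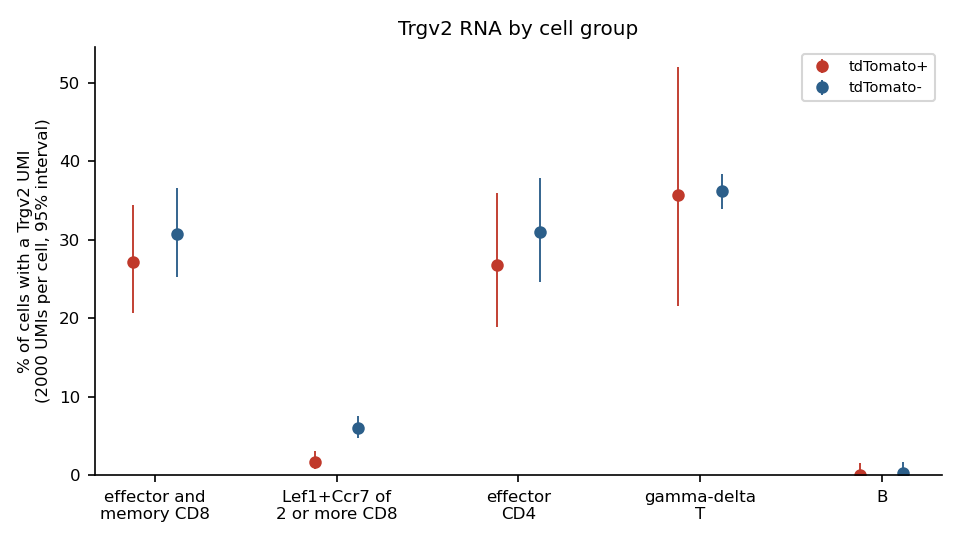
Share of cells with a *Trgv2* UMI after each cell was thinned to 2000 UMIs, with 95% exact binomial intervals, by cell group, in the tdTomato+ (red) and tdTomato- (blue) libraries. Effector and memory CD8 T cells (27.2% and 30.7%) lay beside effector CD4 T cells (26.8% and 31.0%) and above the *Lef1*/*Ccr7*-positive CD8 T cells (1.65% and 6%).

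The *Trgv2* RNA was seldom joined by an assembled γ chain. The γδ V(D)J libraries held TRG contigs on 119 and 2200 barcodes and TRD contigs on 29 and 796. Of members with a *Trgv2* UMI, 1 of 82 (1.22%) and 5 of 133 (3.76%) had a TRGV2 contig, and of γδ T cells with such a UMI, 1 of 26 (3.85%) and 33 of 1082 (3.05%) did. TRG contigs of any kind were found on 1 (0.568%) and 13 (4%) members, below the 9 of 42 (21.4%) and 401 of 1885 (21.3%) γδ T cells. TRD contigs were found on 0 and 4 members. A missing contig does not show a missing chain, since most γδ T cells lacked one too. Among strict members 64 of 149 (43.0%) and 87 of 216 (40.3%) held a *Trgv2* UMI, close to the shares of all members. γ segments resemble each other, and the split of reads between them is uncertain. *Trgv1* was also higher, at 52.1 and 52.2 CPM against 7.21 and 15.2 CPM, on library totals only.

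The αβ receptor segments were spread widely. *Trbv* RNA was found in 167 and 283 members, and the effective number of segments (inverse Simpson index of the main segment per cell) was 11.6 and 10.6, beside 13.5 and 12.5 in comparison cells. *Trbv1* (14.4%) and *Trbv5* (13.2%) led in tdTomato+ members, and *Trbv5* (14.8%), *Trbv12-2* (13.4%) and *Trbv13-1* (13.4%) in tdTomato- members. The *Trav* index was 43.6 and 36.1 against 42.4 and 44.7. The most frequent *Trav* segment was *Trav16n* (5.81%) in tdTomato+ members and *Trav6-7-dv9* (7.17%) in tdTomato- members. *Trav6-7-dv9*, a segment that δ chains can also use, was the main one in 2.44% of tdTomato- comparison cells with *Trav* RNA. *Trdv2-2*, a δ segment, was among the genes lower in tdTomato+ members and kept its call in strict members. It had 3 UMIs in 1 tdTomato+ member and 207 UMIs in 36 tdTomato- members, so some members held RNA of this segment. Whether that RNA belonged to joined δ chains was not tested, and strict members by definition held no *Trdc* UMI. Contigs of αβ chains were not analysed here.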

How the data were processed

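CD45+ tdTomato+ and CD45+ tdTomato- liver cells of *Stab2-CrexERT2*; *R26-LSL-tdT* mice were profiled with the 10x 5′ v3 kit in 1 library each. The deposited matrices hold UMI counts, which the authors obtained with Cell Ranger (version 10.0.0 in the matrix header; mm10 in the submitters' processing notes), and the deposited V(D)J contigs hold γ and δ chains. Of 33696 gene IDs, 31961 matched the GENCODE M21 table used for positions, so that the files' annotation may differ from it, and gene names were taken from the files.

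UMIs were summed over the cells of a group and given as CPM, per 1000000 UMIs of that sum (pandas 2.3.3, scipy 1.17.1 and numpy 2.4.6 under Python 3.11.15; figures with matplotlib 3.10.9). A gene counted as past the fold with at least 50 CPM in 1 group and a ratio of at least 2. Genes of the rule were left out of the counts. γδ T cells held CD3 UMIs, 2 or more *Trdc* UMIs that outnumbered those of *Trac*, *Trbc1* and *Trbc2*, and no *Cd8b1* or *Cd4* UMI. Effector CD4 T cells met the member rule with *Cd4* in place of *Cd8b1* and no *Foxp3* UMI. NK cells held an *Ncr1* UMI and B cells 2 or more *Cd79a* UMIs, both without CD3 UMIs. None of these groups held *Kdr* or *Clec4g* UMIs. Each cell was thinned to 2000 UMIs with a fixed seed for shares at matched depth. The scripts were tested on simulated data. Named genes are members of 13 gene lists and the 10 largest ratios each way, and other genes named in the text (the *Gzmk* and *Cxcr6* subset genes outside the lists, receptor and immunoglobulin segments) were chosen after their values were seen. The members and the lists were chosen with earlier results of these data known. Alternatives covered other limits on members, levels, ratios and scaling. Some listed genes are not reported here.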

Additional observations from a re-analysis of the deposited data

Results flagged for a closer look

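In 6 comparisons between subsets a listed gene was past the fold upwards in 1 library and downwards in the other. The differences between the libraries were not tested. Against *Gzmk*+ *Cxcr6*+ cells, *Fcer1g* in *Gzmk*+ *Cxcr6*- cells had log2 ratios of 2.45 (tdTomato+) and -1.75 (tdTomato-). Without members that held 5 or more macrophage-list UMIs, these values were -1.85 and -4.07. Against the same cells, *Gzmk*- *Cxcr6*+ cells gave -1 and 2.16 for *Il12rb2* and -1.11 and 1.04 for *Xcl1*. Between *Gzmk*- *Cxcr6*+ and *Gzmk*+ *Cxcr6*- cells, *Ctla4* gave 1.22 and -1.05, *Fcer1g* -3.83 and 2.39, and *Tyrobp* -5.82 and 1.21. Without the macrophage-positive members *Fcer1g* was 0.92 and 5.18, and *Tyrobp* -1.99 and 5.32. The *Gzmk*- *Cxcr6*+ subset of the tdTomato+ library held 29 cells.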

How the results depend on the processing

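With 1 library per sort, no result has a replicate check. No paired analysis was possible because each group holds 1 library. The strict limit (2 or more *Cd8b1* UMIs and no *Trdc* UMI) and the settings without cycling cells, haemoglobin-rich cells, *Igkv3-10* and *Ighv3-6* barcodes, macrophage-positive members or *Ccl5*-rich comparison cells were chosen after seeing the data. Shallow cells and a single *Cd8b1* UMI limit the tdTomato- members most. The cause of these moves was not tested. A log2 ratio against a level of 0 has no value and was left out.

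The share of T cells was 5.65% (tdTomato+) and 1.55% (tdTomato-) with 2 or more *Cd8b1* UMIs, 1.90% (tdTomato-) without *Trdc* UMIs, and 5.65% and 1.42% under the strict limit. Genes higher and lower in members than in comparison cells numbered 326 and 146 at 10 CPM, 1001 and 1730 without a level limit, 351 and 191 at a ratio of 1.5, and 76 and 101 with median-of-ratios factors, and 248 were higher against comparison cells with fewer than 5 *Ccl5* UMIs. Between the sorts, higher and lower genes numbered 150 and 195 at 10 CPM, 2097 and 2834 without a level limit, 103 and 134 at a ratio of 1.5, and 52 and 78 in cells thinned to 2000 UMIs. Higher genes were 13 with the mean of per-cell CPM and 13 without cycling cells, and lower genes were 19 under the strict limit. These log2 ratios changed sign: *Tyrobp* 0.16 under the strict limit, *H2ac4* -1.55 without cycling cells, and *Hba-a1* 0.48 and *Hbb-bs* 2.48 without haemoglobin-rich cells.

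Thinning to 2000 UMIs gave subset shares of 27.7% and 22.6% (*Gzmk* alone), 16.8% and 23.7% (both) and 34.1% and 29.6% (neither). In tdTomato- members, 2 or more *Cd8b1* UMIs gave 60.6% (both), 16.5% (*Cxcr6* alone) and 8.90% (neither). The strict limit gave 15.3% (*Gzmk* alone), 59.7% (both), 15.7% (*Cxcr6* alone) and 9.26% (neither), and leaving out the *Igkv3-10* and *Ighv3-6* barcodes 56.7% (both) and 10.5% (neither).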
